A study of Arabidopsis thaliana with 24 samples.

Results

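Polysomal RNA of developing Arabidopsis thaliana seeds was compared between 15 and 12 days after pollination (DAP), on the 3 arrays labelled as polysomal at each of these stages. The members are therefore 6 of the 24 arrays of the series, chosen by fraction and stage and not by any measured value. The other arrays hold polysomal RNA at 18 and 20 DAP and total RNA at all 4 stages. Both groups were whole seeds of the Col-0 accession, the common laboratory wild type, with no transgene and no treatment named. Each replicate was a pool of plants from a randomised block planting. RNA was labelled with biotin and hybridised to one-colour arrays, and the deposited values are log2 levels of 27827 loci. The labels do not say how the polysomes were isolated.

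A polysome is a messenger RNA carried by several ribosomes at once, so polysomal RNA samples the transcripts being translated. In seed maturation the embryo first fills with storage protein and oil while it is still green, and then takes up the means to survive drying, under abscisic acid and a small set of transcription factors that includes LEC1, FUS3, ABI3 and ABI5. The chloroplasts of the Arabidopsis embryo lose their chlorophyll before the seed is dry.

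Changes below are log2 differences, 15 minus 12 DAP, with the standard error from limma and n = 3 arrays per stage, and p values are adjusted over all 27827 loci after Benjamini and Hochberg. A change of 1 on this scale is a doubling. "Called" means an adjusted p under 0.05. "In both scalings" means called in the same direction on the deposited values and after quantile normalization of the 6 arrays, a step that gives every array the same distribution of levels. That second scaling was needed because the 12 DAP arrays had a narrower range. The SD over loci was 1.39 to 1.49 on the polysomal 12 DAP arrays and 2.32 to 2.38 at 15 DAP. Replicates correlated across loci at 0.739 to 0.769 at 12 DAP and at 0.984 to 0.987 at 15 DAP, a description only, since loci are not independent. Between replicates the SD of a locus had a median of 0.567 at 12 DAP and of 0.207 at 15 DAP.

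**Figure D1:**
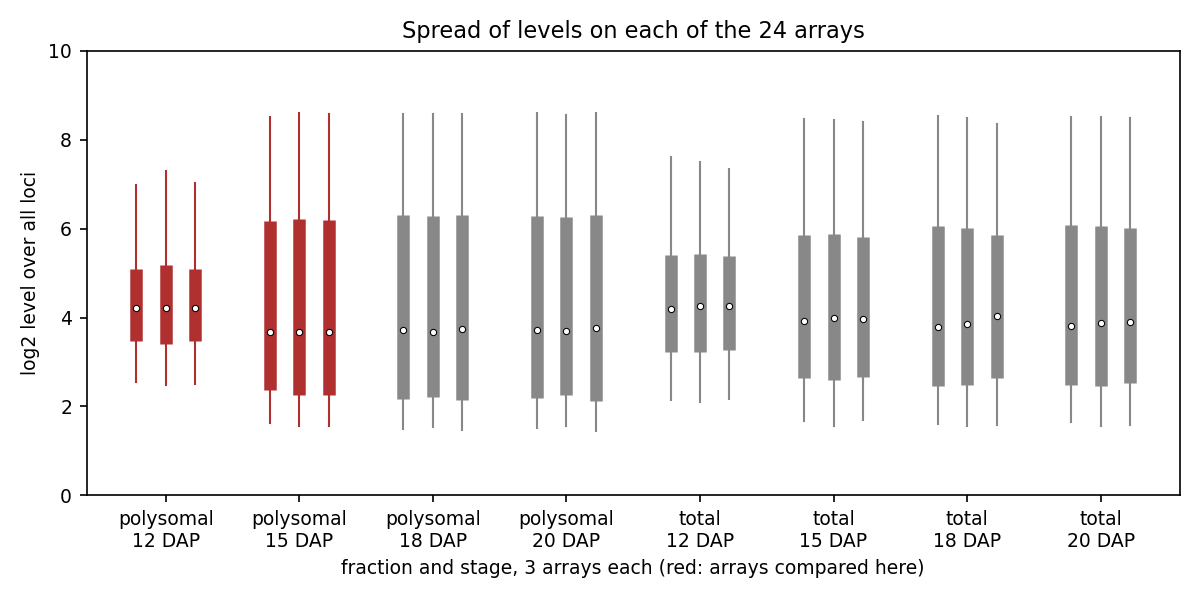
Levels (log2) over 27827 loci on each of the 24 arrays, with the median as a point, the middle of the distribution from the lower to the upper quartile as a thick bar, and the 5th to 95th percentile as a thin line. The polysomal arrays of 12 DAP have an SD of 1.39 to 1.49, below the 2.32 to 2.38 of the polysomal arrays of 15 DAP. Total RNA shows a lesser narrowing, with 1.64 to 1.71 at 12 DAP and 2.13 to 2.19 at 15 DAP.

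On the deposited values 19157 loci, 68.8%, were called. Of these 8190 (29.4%) were higher and 10967 (39.4%) were lower at 15 DAP. After quantile normalization 5672 loci (20.4%) were called, 3239 higher (11.6%) and 2433 lower (8.74%). Both scalings called 4996 loci in the same direction (18.0%), of which 3004 rose (10.8%) and 1992 fell (7.16%), and no locus was called in opposite directions. The median locus changed by -0.51 as deposited and by -0.06 after quantile normalization. All changes are tested against 0, with no shift subtracted, so the values of a gene or list are to be read against these medians.

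The direction of the change followed the level of the locus on the deposited values. The loci were put into 10 classes of equal size by mean level over the 6 arrays. In the dimmest class the median change was -1.11, and 1 locus was called higher and 1766 were called lower. In the brightest class the median was 1.76, with 1972 higher and 183 lower. After quantile normalization these medians were -0.15 and 0.39. A bright transcript that rose by 1 to 2 log2 units as deposited is therefore near the middle of its level class, and the groups below are described mainly by what was called in both scalings.

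**Figure D2:**
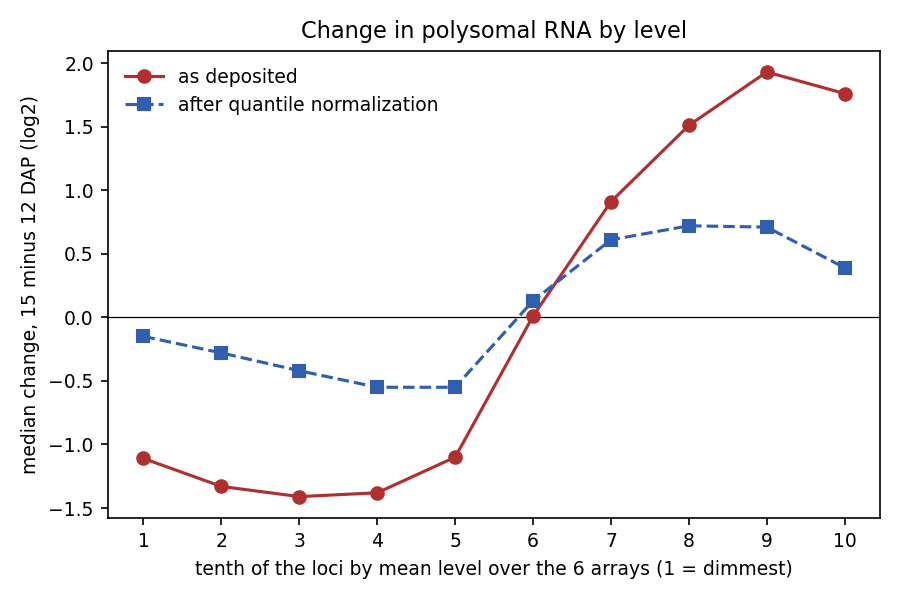
Median change in polysomal RNA (log2, 15 minus 12 DAP) in 10 classes of loci of equal size ordered by mean level over the 6 arrays, as deposited and after quantile normalization. As deposited the medians run from -1.41 to 1.93, and quantile normalization narrows them to between -0.55 and 0.72.

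The largest rise as deposited among loci that rose in both scalings was that of AT1G52560, a protein-coding locus with no gene name in the RefSeq table used here. Its levels were 2.59, 4.57 and 4.72 at 12 DAP and 10.61, 10.64 and 10.59 at 15 DAP. The stages lay far apart although the 12 DAP values themselves spread by over 2 units, and the change was 6.65 ± 0.52 (adjusted p = 2.61e-05; 6.30 after quantile normalization). Its mean stayed high later, at 9.88 and 10.01 at 18 and 20 DAP. AIRP2, a RING protein named for its role in the abscisic acid response, stood at 3.65, 3.27 and 4.23 at 12 DAP and 9.50, 9.70 and 9.68 at 15 DAP. It rose by 5.91 ± 0.34 (adjusted p = 1.04e-05), again with no overlap between stages.

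HSP17.6A, a small heat shock protein that keeps other proteins from clumping, was at 6.09, 6.18 and 2.94 at 12 DAP and 10.74, 10.80 and 10.68 at 15 DAP. The third 12 DAP array was the low one, and without it the change was 4.60, the lowest value with any array left out, against 5.67 ± 0.74 with all 6 (adjusted p = 0.000242). AO1 (AT5G20960), an aldehyde oxidase, rose by 5.58 ± 0.41 from levels of 4.88, 5.70 and 4.12 (adjusted p = 1.89e-05). The other 8 of the 12 largest rises have no gene name in the RefSeq table. They are AT5G50360, AT1G19490, AT1G47980, AT3G53040, AT1G08170, AT5G54000, AT2G19320 and AT4G27530, and they rose by 5.58 to 6.46.

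The largest fall was that of AT1G62220, which also has no gene name. It was among the brightest loci at 12 DAP with 10.70, 11.10 and 10.40 and among the dimmest at 15 DAP with 1.62, 2.50 and 1.53, a change of -8.85 ± 0.37 (adjusted p = 5.34e-06). Next came CAB1, which encodes a chlorophyll-binding protein of the main light-harvesting antenna. Its levels were 10.98, 11.05 and 10.95 at 12 DAP and 4.39, 2.08 and 3.52 at 15 DAP, so the 12 DAP arrays nearly coincided and the 15 DAP arrays spread, and the change was -7.67 ± 0.52 (adjusted p = 1.76e-05). LHCB5, a minor antenna protein of photosystem II, went from 11, 11.27 and 10.85 to 3.66, 3.44 and 3.65, a change of -7.46 ± 0.30 (adjusted p = 5.34e-06).

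PSBO1, which holds the oxygen-evolving complex of photosystem II in place, changed by -7.03 ± 0.30 from 10.35, 10.61 and 10.29 (adjusted p = 5.34e-06). APE2, the triose phosphate exporter of the chloroplast envelope, changed by -6.83 ± 0.31, FBA2, a plastid aldolase of the Calvin cycle, by -6.70 ± 0.31, and LHCB2.2, another antenna protein, by -6.67 ± 0.37. With CAB1, LHCB5 and PSBO1 these make up 6 of the 12 largest falls. ECS1 changed by -6.85 ± 0.51. The remaining 4, AT4G30880, AT1G62060, AT5G38170 and AT1G13607, have no gene name, and their changes ran from -7.46 to -6.95. Over all loci the stages did not overlap for 31.8% with higher and 42.0% with lower values at 15 DAP, and the 24 were chosen among such loci. None of the 24 lost its call when any one array was left out.

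**Figure D3:**
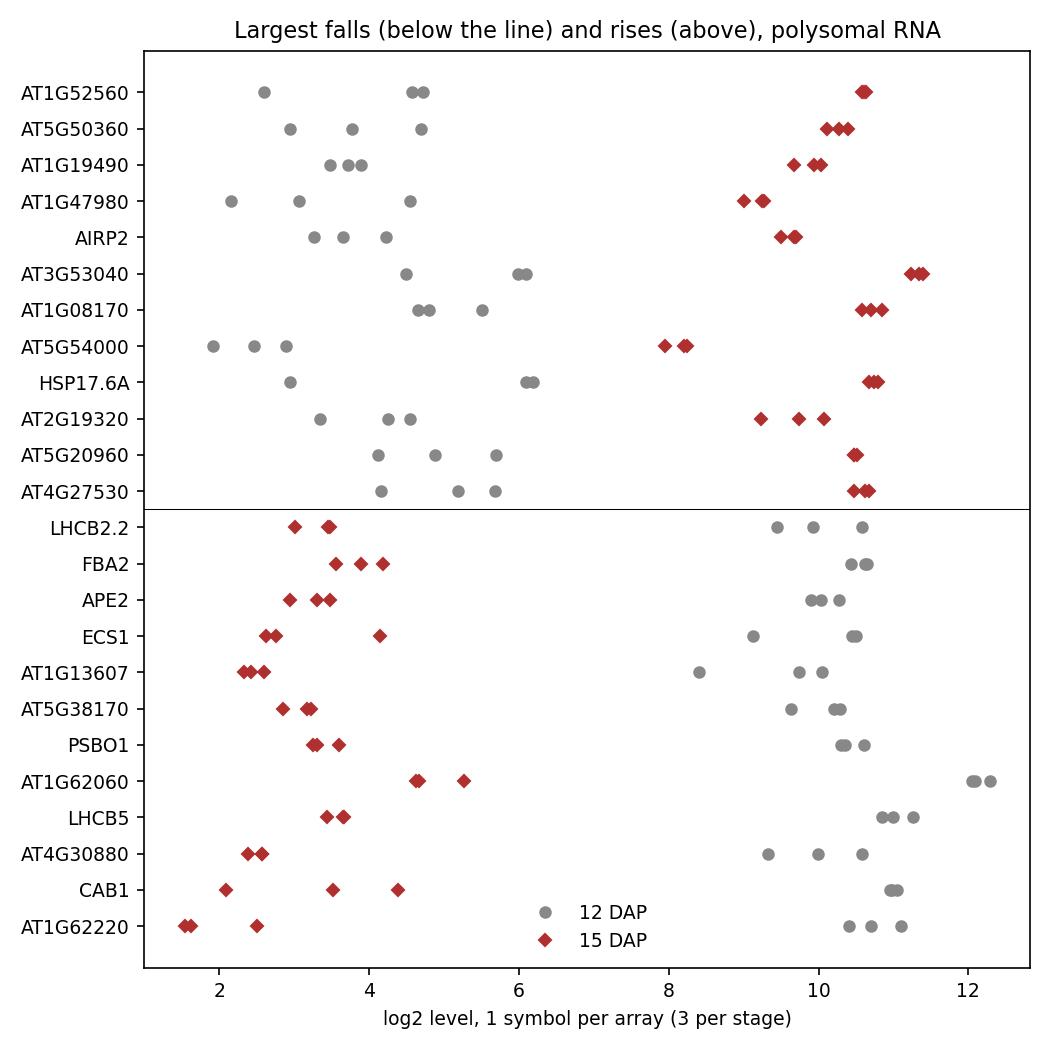
Levels (log2) in polysomal RNA of the 12 loci with the largest rises (above the line) and the 12 with the largest falls (below it) among loci called in both scalings, with 1 symbol per array and 3 arrays per stage. The stages do not overlap for any of the 24, AT1G62220 changes by -8.85 and AT1G52560 by 6.65.

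The photosynthetic apparatus fell. Of 47 nuclear genes for the light reactions, 45 fell as deposited and 41 in both scalings, and 0 rose, with a median of -4.27 (-4.67 after quantile normalization). Beside antenna and photosystem II genes these included PSAL (-5.90), PSAG (-5.77) and PSAF (-5.47), subunits of photosystem I, NPQ4 (-5.36), which triggers the safe loss of excess light, and FNR1 (-4.27), which makes NADPH. The 2 that were not called were LHCB4.1 at -0.83 ± 0.46 and PSAD-2 at 0.33 ± 0.54. PSAD-2 had levels of 3.32, 5.08 and 2.77 at 12 DAP and 3.69, 4.26 and 4.2 at 15 DAP, against 4.61, 6.61 and 6.08 and then 2.19, 1.5 and 1.49 for its close copy PSAD-1, which changed by -4.04 ± 0.50 (adjusted p = 0.00019). Antenna genes are close copies of one another, and how the probe sets divide signal among them is not stated.

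Of 12 genes for the Calvin cycle and the small subunits of Rubisco, 9 fell as deposited and 8 in both scalings, with a median of -3.03. GAPB, a subunit of the enzyme that reduces the fixed carbon, was at 8.88, 9.74 and 8.94 at 12 DAP and 4.74, 3.84 and 3.86 at 15 DAP, and RCA, which keeps Rubisco active, was at 8.16, 9.16 and 8.95 at 12 DAP and 4.11, 3.79 and 3.40 at 15 DAP. The stages of both lay apart by more than 4 units. GAPB changed by -5.04 ± 0.39 (adjusted p = 2.24e-05) and RCA by -4.99 ± 0.37 (adjusted p = 2.02e-05). The small subunit genes differed among themselves, with RBCS1A at -4.56 ± 0.29 and RBCS1B at -3.51 ± 1.16, both called, and RBCS2B at -0.77 ± 0.43 and RBCS3B at -0.54 ± 0.46, neither called.

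Genes that make chlorophyll fell and genes that take it apart rose. Of 13 genes for chlorophyll synthesis, 10 fell as deposited and 8 in both scalings. CRD1, which closes the last ring of the chlorophyll skeleton, was at 9.84, 9.97 and 9.86 at 12 DAP and 3.73, 2.79 and 3.16 at 15 DAP, with the 12 DAP arrays close together and well above the others. It changed by -6.66 ± 0.33 (adjusted p = 6.65e-06). GUN5, the subunit that inserts magnesium, changed by -5.10 ± 0.31, and PORB, which reduces protochlorophyllide in the light, by -4.28 ± 0.34. CH1, which makes chlorophyll b, was called higher as deposited at 0.98 ± 0.36 and stood at -0.49 after quantile normalization (adjusted p = 0.367). Its call was also lost in 5 of the 6 fits with 1 array left out.

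Of 10 genes for chlorophyll breakdown, 7 rose as deposited and 5 in both scalings, with a median of 1.96 (0.97 after quantile normalization). NYE1 and NYE2 (AT4G11910) take the magnesium out of chlorophyll and so start its loss. NYE1 had levels of 7.0, 7.07 and 7.13 at 12 DAP and 10.12, 10.18 and 10.15 at 15 DAP and rose by 3.09 ± 0.28 (adjusted p = 4.9e-05). NYE2 had levels of 6.37, 5.80 and 5.31 at 12 DAP and 10.05, 10.31 and 10.23 at 15 DAP and rose by 4.37 ± 0.35 (adjusted p = 2.65e-05). Replicates of NYE1 differed by far less than the stages did. PPH, which cuts off the phytol tail, rose by 4.1 ± 0.37, NYC1, which turns chlorophyll b back to a, by 3.55 ± 0.31, and ACD1, which opens the ring, by 2.48 ± 0.31. CLH1, a chlorophyllase, was called lower as deposited at -1.42 ± 0.39 and was not called after quantile normalization (adjusted p = 0.609).

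Genes for oil synthesis mostly fell. Of 37 genes that build fatty acids or triacylglycerol, 23 fell as deposited and the same 23 in both scalings, and 4 rose as deposited and 1 in both. After quantile normalization alone 29 were called lower and 1 higher. The median was -1.1 as deposited, -2.31 after quantile normalization and -2.85 after cyclic loess. ACP5, an acyl carrier protein that holds the growing chain, had levels of 9.81, 9.27 and 9.71 at 12 DAP and 3.25, 3.15 and 2.82 at 15 DAP and changed by -6.52 ± 0.31 (adjusted p = 5.81e-06). CAC1, the biotin carrier of acetyl-CoA carboxylase, had levels of 8.55, 8.81 and 8.58 at 12 DAP and 4.07, 3.83 and 3.64 at 15 DAP and changed by -4.80 ± 0.30 (adjusted p = 1.39e-05). LTA2, a subunit of the plastid pyruvate dehydrogenase that supplies acetyl-CoA, had levels of 9.79, 9.31 and 9.47 at 12 DAP and 4.45, 4.49 and 4.62 at 15 DAP and changed by -5.00 ± 0.30 (adjusted p = 1.19e-05). In all 3 the stages were over 4 units apart. Other plastid members were not called as deposited, among them SSI2, a stearoyl desaturase, at -0.33 ± 0.33 and FaTA, which releases the finished chain, at -0.35 ± 0.67.

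The genes of the chain-lengthening cycle moved with them, with KASI at -4.49 ± 0.29, MOD1, the enoyl reductase, at -3.40 ± 0.35, and FAB1, the last elongating enzyme of the plastid, at -2.22 ± 0.46. WRI1, the transcription factor that switches these genes on, was at 6.71, 6.51 and 6.40 at 12 DAP and 4.93, 5.54 and 5.49 at 15 DAP and changed by -1.22 ± 0.32 (adjusted p = 0.00749; -2.29 after quantile normalization). The gene that rose in both scalings was TAG1, the enzyme DGAT1 that adds the last acyl chain to triacylglycerol. Its levels were 6.19, 6.16 and 5.82 at 12 DAP and 8.87, 8.60 and 8.59 at 15 DAP, a rise of 2.63 ± 0.30 (adjusted p = 0.000127) that was 1.15 after quantile normalization. Genes of the endoplasmic reticulum went both ways. KCS18, GPAT9 and PDAT were called higher as deposited, at 1.541, 1.515 and 0.844. None of them was called after quantile normalization (adjusted p = 0.514, 0.509 and 0.97). ROD1, which passes fatty acids between lipid pools, changed by -2.69 ± 0.33 (adjusted p = 0.000167). FAD3, which makes linolenic acid, changed by -0.73 ± 0.29 (adjusted p = 0.043). FAD2, another desaturase there, stood at -0.04 ± 0.32 as deposited and was called lower after quantile normalization at -1.45 (adjusted p = 0.0257) and in total RNA at -1.03 ± 0.33 (adjusted p = 0.0299).

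Transcripts for using oil rose at the same time. Of 21 genes for reserve lipid mobilisation, 17 rose as deposited and 9 in both scalings, with a median of 2.48 (1.06 after quantile normalization). MLS and ICL, the enzymes particular to the glyoxylate cycle that turns acetyl-CoA into sugar precursors, were at 7.89, 7.70 and 7.32 at 12 DAP and 11.42, 11.44 and 11.33 at 15 DAP for MLS and at 7.99, 8.39 and 7.97 at 12 DAP and 11.25, 11.25 and 11.12 at 15 DAP for ICL. MLS rose by 3.76 ± 0.30 (adjusted p = 2.79e-05) and ICL by 3.08 ± 0.30 (adjusted p = 6.06e-05), with no overlap between the stages. The beta-oxidation enzyme ACX1 rose by 2.82 ± 0.32. PMDH2, a peroxisomal malate dehydrogenase, went the other way at -3.57 ± 0.34 (adjusted p = 5.52e-05), while its partner PMDH1 rose by 2.75 ± 0.40.

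The storage proteins were already near the top of the range at 12 DAP, and most were not called. The list's mean level on a single array was 10.69 to 11.02 at 12 DAP and 11.61 to 11.66 at 15 DAP, against 4.41 to 4.44 and 4.33 to 4.35 for all loci, which places seed tissue on every array. Of 9 genes, 3 rose in both scalings and 0 fell. CRA1, a cruciferin of the globulin class, was at 12.51, 12.41 and 12.45 at 12 DAP and 12.24, 12.31 and 12.30 at 15 DAP, and its change of -0.17 ± 0.28 was not called (adjusted p = 0.603). SESA4, an albumin, was at 8.06, 9.13 and 9.69 at 12 DAP and 11.73, 11.82 and 11.79 at 15 DAP, and rose by 2.82 ± 0.42 (adjusted p = 0.000466), while its neighbour in the albumin family SESA3, at 11.12, 11.57 and 11.56 at 12 DAP and 11.35, 11.33 and 11.45 at 15 DAP, was not called (adjusted p = 0.913). SESA2 rose by 2.33 ± 0.35 and PAP85, a vicilin-like protein, by 1.43 ± 0.32. The 3 that rose had the lowest means of the list at 12 DAP, from 8.01 to 10.37.

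Among 7 oil body proteins, which coat the oil droplets, 1 rose and 1 fell in both scalings. ATPXG2, a caleosin with peroxygenase activity, was at 8.44, 7.70 and 8.5 at 12 DAP and 10.74, 10.70 and 10.78 at 15 DAP and rose by 2.53 ± 0.33 (adjusted p = 0.000237). OLEO3, an oleosin, was at 10.32, 10.26 and 9.84 at 12 DAP and 8.65, 9.07 and 8.92 at 15 DAP and changed by -1.25 ± 0.31 (adjusted p = 0.006). OLEO1, the main oleosin, was at 12.33 ± 0.07 at 12 DAP and 11.98 ± 0.02 at 15 DAP (SD, n = 3) and was not called (adjusted p = 0.295). Of 13 genes for the sorting and folding of storage proteins, BETA-VPE, a protease that processes them in the vacuole, rose by 3.02 ± 0.36 (adjusted p = 0.000157) from 8.57, 7.46 and 8.40 to 11.13, 11.18 and 11.17. DELTA-VPE, a relative that acts in the inner seed coat, changed by -4.2 ± 0.45 (adjusted p = 9.48e-05) from 6.11, 7.97 and 7.27 to 2.92, 2.87 and 2.96. CRT1a, a calreticulin, changed by -1.81 ± 0.45 and also fell in both scalings. As deposited 5 of the 13 were higher, but only 3 when any one 15 DAP array was left out.

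Transcripts for surviving dryness rose. Of 23 LEA proteins and dehydrins, hydrophilic proteins thought to shield dry cells, 17 rose as deposited and 9 in both scalings, and 3 fell as deposited and 2 in both, with a median of 1.48 (1.06 after quantile normalization). LTI30, a dehydrin, was at 5.16, 7.07 and 4.76 at 12 DAP and 10.49, 10.87 and 10.69 at 15 DAP, a rise of 5.02 ± 0.54 (adjusted p = 9.82e-05). M17, a seed LEA protein, was at 7.16, 8.54 and 7.88 at 12 DAP and 11.87, 11.89 and 11.85 at 15 DAP, a rise of 4.01 ± 0.38 (adjusted p = 5.69e-05), and ECP63 rose by 4.27 ± 0.37. In each the 15 DAP arrays lay close together and the 12 DAP arrays spread over more than 1 unit, with no overlap between the stages.

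EM1 and EM6 (listed as GEA6), small LEA proteins of the late embryo, were high already at 12 DAP. EM1 was at 9.72, 10.30 and 10.07 at 12 DAP and 11.71, 11.79 and 11.80 at 15 DAP and rose by 1.74 ± 0.30 (adjusted p = 0.00108). GEA6 was at 10.79, 10.96 and 10.93 at 12 DAP and 11.79, 11.82 and 11.70 at 15 DAP, a change of 0.87 ± 0.29 (adjusted p = 0.0219) that was not called after quantile normalization (adjusted p = 0.102), nor when any one 15 DAP array was left out. The 2 that fell in both scalings were ERD14 at -2.37 ± 0.30 and ERD10 at -2.13 ± 0.41, acidic dehydrins known from cold and drought in leaves.

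The heat shock list rose with them, with 13 of 18 higher as deposited, 9 in both scalings and 0 lower, at a median of 2.46 (1.39 after quantile normalization). HSFA9, the heat stress factor of seeds, was at 4.19, 4.83 and 4.92 at 12 DAP and 9.68, 9.92 and 9.85 at 15 DAP and rose by 5.17 ± 0.32 (adjusted p = 1.39e-05). HSP23.6-MITO, a small heat shock protein of mitochondria, was at 3.37, 4.66 and 4.23 at 12 DAP and 9.53, 9.54 and 9.27 at 15 DAP and rose by 5.36 ± 0.38 (adjusted p = 1.81e-05). HSP90.1 rose by 4.60 ± 0.32 and HSP101, which untangles clumped proteins, by 4.01 ± 0.30. By contrast HSC70-1, a constitutive chaperone, at -0.36 ± 0.30, and HSFA2, the factor of heated leaves, at 0.40 ± 0.33, were not called.

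Of 13 genes for raffinose sugars, tocopherols and a seed peroxiredoxin, 5 rose and 4 fell in both scalings. GolS1 and GolS2, which make the galactinol that raffinose sugars are built from, were at 6.98, 6.38 and 5.60 at 12 DAP and 10.93, 11.12 and 11.11 at 15 DAP for GolS1 and at 5.80, 7.53 and 6.67 at 12 DAP and 10.39, 10.36 and 10.26 at 15 DAP for GolS2. They rose by 4.73 ± 0.38 (adjusted p = 2.79e-05) and 3.67 ± 0.43 (adjusted p = 0.000143). STS, a stachyose synthase, rose by 3.47 ± 0.31. VTE5, a phytol kinase for tocopherol synthesis, changed by -2.93 ± 0.43, while VTE1, the tocopherol cyclase, rose by 3.39 ± 0.30. The peroxiredoxin PER1 was at 11.08, 11.25 and 11.10 at 12 DAP and 11.60, 11.67 and 11.65 at 15 DAP and was not called (adjusted p = 0.142).

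The regulators of maturation moved in different directions. LEC1 was at 4.54, 5.35 and 5.79 at 12 DAP and 2.40, 2.11 and 2.05 at 15 DAP and changed by -3.04 ± 0.38 (adjusted p = 0.000187), and its paralogue NF-YB6 was at 6.97, 7.21 and 6.90 at 12 DAP and 2.76, 2.72 and 3.41 at 15 DAP and changed by -4.06 ± 0.32 (adjusted p = 2.65e-05). ABI5, a bZIP factor of the abscisic acid response, was at 5.77, 6.59 and 6.02 at 12 DAP and 10.80, 11.12 and 11 at 15 DAP and rose by 4.84 ± 0.33 (adjusted p = 1.81e-05). These 3 changed in both scalings. BZIP53, which acts on storage protein genes, rose by 3.11 ± 0.44, and HSI2, a repressor of the maturation programme in seedlings, by 2.31 ± 0.39. ABI3 was at 7.02, 7.97 and 6.20 at 12 DAP and 9.35, 9.61 and 9.66 at 15 DAP, a change of 2.48 ± 0.44 (adjusted p = 0.00114) that was 1.2 and not called after quantile normalization (adjusted p = 0.089). FUS3 was at 6.37, 6.82 and 5.55 at 12 DAP and 6.64, 6.55 and 6.40 at 15 DAP and was not called in either scaling (adjusted p = 0.51 and 0.0987), and its sign turned, from 0.28 to -1.07. After cyclic loess FUS3 was called lower, at -1.63 (adjusted p = 0.00866). Of the 20 factors listed, 8 rose and 6 fell as deposited, and 3 of each in both scalings. Over all loci 29.4% rose and 39.4% fell as deposited, and 10.8% rose and 7.16% fell in both scalings. The counts of the list are not far from these shares.

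Abscisic acid, the hormone that holds a seed in maturation and dormancy, is counted through 28 genes. As deposited 17 rose and 3 fell, and in both scalings 10 rose and 1 fell, with a median of 1.56 (1.13 after quantile normalization). The largest rises were those of phosphatases that hold the hormone's signal back. AHG1, a phosphatase of seeds, was at 5.22, 4.35 and 5.96 at 12 DAP and 10.39, 10.43 and 10.46 at 15 DAP and rose by 5.25 ± 0.41 (adjusted p = 2.59e-05). HAI2 rose by 4.67 ± 0.42, HAB2 by 4.29 ± 0.40 and HAB1 by 3.03 ± 0.33. On the activating side the kinase SNRK2.3 rose by 4.18 ± 0.40 and NCED5, which cleaves the carotenoid precursor, by 2.1 ± 0.29. The kinase OST1 was called lower as deposited at -0.92 ± 0.35 (adjusted p = 0.0392). CYP707A3, a gene of abscisic acid breakdown, was called lower as deposited at -1.32 ± 0.31 (adjusted p = 0.00458). Neither was called after quantile normalization (adjusted p = 0.795 and 0.385).

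DOG1, the main regulator of dormancy depth, was at 6.56, 7.55 and 6.13 at 12 DAP and 8.96, 9.20 and 9.12 at 15 DAP, a change of 2.35 ± 0.39 (adjusted p = 0.000891) that was 0.94 and not called after quantile normalization (adjusted p = 0.123). The gene lower in both scalings was E12A11, also known as MFT, a regulator of germination. It was at 11.55, 11.66 and 11.22 at 12 DAP and 10.48, 10.64 and 10.52 at 15 DAP, a change of -0.93 ± 0.30 (adjusted p = 0.0192), and its call was lost when any one 15 DAP array was left out.

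Of 16 genes for the synthesis of gibberellin and the response to it, 4 rose and 3 fell in both scalings. GID1A, a receptor of this germination hormone, was at 3.79, 4.66 and 3.24 at 12 DAP and 9.06, 9.37 and 9.18 at 15 DAP and rose by 5.31 ± 0.39 (adjusted p = 2.02e-05). GID1C, a related receptor, was at 2.69, 3.47 and 4.52 at 12 DAP and 6.52, 6.65 and 6.99 at 15 DAP and rose by 3.16 ± 0.45 (adjusted p = 0.000386). The third receptor, GID1B, was called lower as deposited at -1.28 ± 0.36 and not after quantile normalization (adjusted p = 0.63). GA20OX2, a synthesis enzyme, was at 6.09, 5.53 and 6.78 at 12 DAP and 3.20, 3.33 and 2.96 at 15 DAP and changed by -2.97 ± 0.37 (adjusted p = 0.000199), and GA20OX3 changed by -2.45 ± 0.34. The growth repressors GAI and RGL3 rose by 2.71 ± 0.30 and 2.44 ± 0.36, and RGL1 changed by -2.56 ± 0.32. As deposited 6 rose and 8 fell, and 5 did so without the third 15 DAP array.

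Genes that carry sugar and amino acids into the seed were more often lower than higher. Of 23 genes for sugar and amino acid supply, 16 fell as deposited and 6 in both scalings, with a median of -1.45 (-0.91 after quantile normalization). SAG29, the sucrose exporter SWEET15, was at 8.62, 7.52 and 8.97 at 12 DAP and 5.29, 5.09 and 5.09 at 15 DAP and changed by -3.21 ± 0.40 (adjusted p = 0.000195). UMAMIT29, an amino acid exporter, was at 6.48, 6.26 and 6.48 at 12 DAP and 3.99, 2.85 and 2.43 at 15 DAP and changed by -3.31 ± 0.41 (adjusted p = 0.000196). SUS3, a sucrose synthase, rose in both scalings, from 6.41, 7.06 and 7.47 to 11.04, 11.01 and 11.03, by 4.05 ± 0.34 (adjusted p = 3.46e-05). Of 15 starch genes 6 fell in both scalings and 0 rose, among them CT-BMY, a plastid beta-amylase, at -2.78 ± 0.41 and SBE2.2, a branching enzyme, at -2.26 ± 0.38.

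Growth genes were called lower mostly as deposited. Of 25 genes for the cell cycle and DNA replication, 20 fell as deposited but 6 in both scalings. SYP111, the syntaxin KNOLLE that builds the wall between daughter cells, was at 6.0, 5.52 and 4.40 at 12 DAP and 1.51, 2.31 and 1.33 at 15 DAP and changed by -3.59 ± 0.46 (adjusted p = 0.00022). CDC20.1, which drives the exit from mitosis, changed by -2.85 ± 0.44, and CYCB1;1, a mitotic cyclin, by -1.76 ± 0.38. Of 18 expansins and xyloglucan endotransglucosylases, which loosen and rejoin the cell wall, 14 fell as deposited and 4 in both scalings. EXPA10 was at 7.74, 7.99 and 8.16 at 12 DAP and 3.73, 3.31 and 3.74 at 15 DAP and changed by -4.37 ± 0.31 (adjusted p = 1.81e-05). Most members of both lists lay in the lower levels at 15 DAP, with array means of 3.12 to 3.24 and 3.18 to 3.33.

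The translation machinery was called differently by the scalings. Of 30 cytosolic translation factors, 22 were higher as deposited and 4 in both scalings, with medians of 1.61 as deposited, 0.4 after quantile normalization and -0.01 after cyclic loess. Over all loci 29.4% were higher as deposited and 10.8% in both scalings, and the 4 of 30 lie near the latter share. In the brightest level class 1972 of 2783 loci were higher as deposited. EIF2 BETA, a subunit of the factor that brings the first transfer RNA, was at 6.23, 5.56 and 4.86 at 12 DAP and 9.15, 9.35 and 9.29 at 15 DAP and rose by 3.71 ± 0.38 (adjusted p = 7.96e-05). The others that rose in both scalings were ERF1-2 (2.06) and ERF1-3 (2.74), which end translation, and EIF4B2 (1.81). ELF5A-1, an elongation factor, was lower as deposited at -1.96 ± 0.42 (adjusted p = 0.00321) and not called after quantile normalization (adjusted p = 0.155).

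Of 35 cytosolic ribosomal proteins, 15 were higher and 2 lower as deposited, and 1 was higher and 1 lower in both scalings. The median was 0.86 as deposited, -0.54 after quantile normalization and -0.98 after cyclic loess, so this family has no settled direction. Without 15 DAP replicate 1, 2 or 3, 8, 6 and 7 were higher. SAG24, a ribosomal protein L10 gene, rose in both scalings, from 5.54, 5.54 and 5.88 to 9.74, 10.16 and 10.06, by 4.34 ± 0.30 (adjusted p = 1.81e-05). RPS5A was at 9.07, 8.87 and 9.44 at 12 DAP and 8.48, 8.34 and 8.31 at 15 DAP, a change of -0.75 ± 0.30 (adjusted p = 0.049) that was not called without the third 12 DAP array or without any one 15 DAP array. Ribosomal proteins have near-identical copies, and how the probe sets divide them is not stated.

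Markers of the seed coat and of other tissues mostly fell as deposited beside these changes. In bulk seeds fewer cells of a type and less RNA per cell cannot be told apart. Of 19 flavonoid markers of the seed coat, 13 fell as deposited and 8 in both scalings, and the list's mean level on an array went from 5.34 to 5.47 at 12 DAP to 3.43 to 3.63 at 15 DAP. TT4, chalcone synthase, was at 9.11, 9.84 and 9.45 at 12 DAP and 5.32, 5.24 and 4.92 at 15 DAP and changed by -4.31 ± 0.32 (adjusted p = 2.12e-05). LDOX changed by -4.29 ± 0.34 and BAN, which makes the tannin units of the coat, by -3.96 ± 0.41. UGT80B1, a sterol glucosyltransferase whose loss makes the coat pale, rose by 2.45 ± 0.31 (adjusted p = 0.000203).

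Of 18 mucilage markers, which stand for the outer coat layer, 11 fell as deposited and 9 in both scalings, and array means went from 5.54 to 5.85 to 4.01 to 4.16. BXL1, an enzyme that trims mucilage pectin, was at 8.95, 8.35 and 8.54 at 12 DAP and 2.90, 2.98 and 2.88 at 15 DAP and changed by -5.69 ± 0.31 (adjusted p = 9.31e-06). MUM2 changed by -2.96 ± 0.43 and GL2, the factor that marks this layer, by -2.84 ± 0.49. LUH, a transcriptional co-regulator needed for mucilage release, rose as deposited by 2.04 ± 0.31 (adjusted p = 0.000517) and was not called after quantile normalization. Of 12 endosperm markers, 9 fell as deposited and 2 in both scalings, and 2 rose as deposited and 0 in both, with array means of 4.43 to 4.76 and 3.25 to 3.47. Over all loci 39.4% fell as deposited and 7.16% in both scalings. In the level classes 3 and 4, counted from the dimmest, 2110 of 2782 and 1943 of 2783 loci fell as deposited, with medians of -1.41 and -1.38. The endosperm median of -1.55 lies near these, as for dim loci in general. SUC5, a sucrose carrier of the endosperm, was at 6.95, 5.07 and 5.38 at 12 DAP and 2.39, 2.09 and 2.42 at 15 DAP and changed by -3.50 ± 0.47 (adjusted p = 0.00029), and ALE1 changed by -2.54 ± 0.38. The 2 that rose were ICE1 (1.81 ± 0.33) and AT2G27380 (0.86 ± 0.28). AGL62, the factor that keeps the early endosperm from forming walls, was at 3.74, 2.01 and 3.56 at 12 DAP and 1.18, 1.62 and 1.43 at 15 DAP and was called as deposited only (adjusted p = 0.00943).

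The 5 fruit wall markers stand for silique tissue that a seed sample could hold. All 5 were lower as deposited and 2 in both scalings, SHP2 (-2.24 ± 0.38) and IND (-2.0 ± 0.34), and array means went from 4.23 to 4.72 at 12 DAP to 2.26 to 2.72 at 15 DAP. The 12 DAP means lie close to the mean of all loci, 4.41 to 4.44. The part of these tissues in the falls of photosynthesis, supply and wall genes was not tested.

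**Figure D4:**
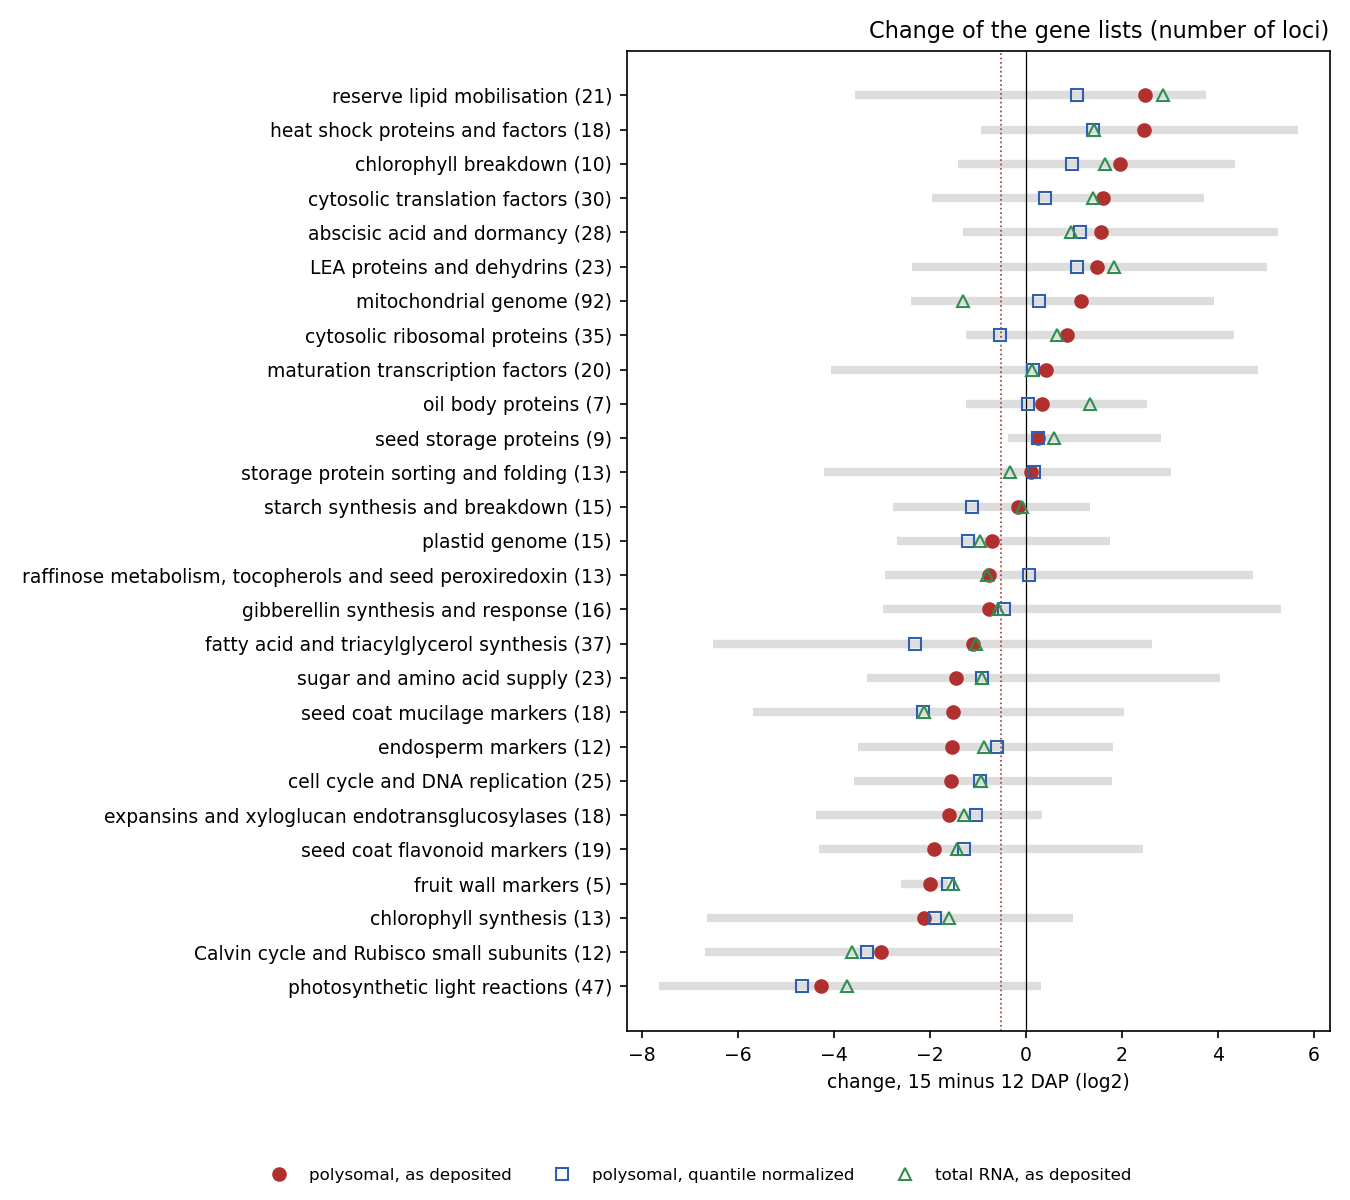
Median change (log2, 15 minus 12 DAP) of 27 gene lists in polysomal RNA as deposited, in polysomal RNA after quantile normalization and in total RNA as deposited, with grey bars from the lowest to the highest member in polysomal RNA as deposited and a dotted line at the median of all loci, -0.51. The light reactions lie lowest with -4.27, and for the mitochondrial genome polysomal RNA (1.15) and total RNA (-1.32) lie on opposite sides of 0.

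Total RNA of the same 2 stages was set beside polysomal RNA. In total RNA 11111 loci were called (39.9%), 5704 higher (20.5%) and 5407 lower (19.4%). Polysomal and total RNA were called in the same direction for 9280 loci, which are 48.44% of the polysomal calls and 83.52% of the total RNA calls, and in opposite directions for 143. This overlap was counted on the deposited values only, where both fractions had the narrower range at 12 DAP. In total RNA the SD over loci was 1.64 to 1.71 at 12 DAP and 2.13 to 2.19 at 15 DAP. The part of this narrowing in the overlap was not tested. The difference between the 2 changes, tested as the interaction of fraction and stage on 12 arrays, was called for 806 loci (2.90%). In 557 (2.0%) polysomal RNA changed upward relative to total RNA, and in 249 (0.895%) downward. Of the 557, 469 were also called higher in polysomal RNA, and of the 249, 237 were called lower there. The range widened more from 12 to 15 DAP in polysomal than in total RNA. The part of this in the interaction calls was not tested. After quantile normalization the interaction was called for 436 loci (1.57%; 1.13% upward and 0.435% downward), of which 293 were among the 806 in the same direction. The count fell to 344, 241 and 265 without polysomal 15 DAP replicate 1, 2 or 3, and to 389, 394 and 296 without the corresponding total RNA arrays.

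The small heat shock protein HSP23.6-MITO was among the genes whose polysomal rise exceeded the rise in total RNA. It rose by 5.36 in polysomal and by 1.16 ± 0.36 in total RNA, a difference of 4.2 ± 0.54 (adjusted p = 0.000998; 0.00577 after quantile normalization). HSP17.6A differed by 3.89 ± 0.87 (adjusted p = 0.0242), SESA4 by 2.15 ± 0.53 (adjusted p = 0.0383) and ABI5 by 1.75 ± 0.46 (adjusted p = 0.0495). These 3 calls were lost after quantile normalization, with adjusted p = 0.142 for HSP17.6A, 0.204 for SESA4 and 0.0884 for ABI5. Of the 47 light-reaction genes 3 differed between the fractions, 2 of them lower on polysomes, and of the 12 Calvin cycle genes 1 differed each way. LHCB2.2 fell further on polysomes than in total RNA, by -2.42 ± 0.51 (adjusted p = 0.0189), as did FBA2, a Calvin cycle aldolase, by -1.99 ± 0.46 (adjusted p = 0.029) and NPQ4, which acts in the shedding of excess light, by -1.98 ± 0.47 (adjusted p = 0.0342). CAB3, an antenna protein, fell less on polysomes, with a difference of 2.93 ± 0.73 (adjusted p = 0.041), and so did RBCS2B, a Rubisco small subunit, at 3.18 ± 0.58 (adjusted p = 0.00786). After quantile normalization NPQ4 (adjusted p = 0.0719) and CAB3 (adjusted p = 0.076) were no longer called. For most named genes no such difference was called. CAB1, for one, changed by -7.67 in polysomal and -7.36 ± 0.37 in total RNA (adjusted p = 0.835 for the difference).

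Transcripts of the mitochondrial genome changed differently in the 2 fractions. That genome encodes parts of the respiratory chain and its own translation apparatus, and its transcripts are translated on ribosomes inside the organelle. Of its 92 loci on the array, 50 were higher and 4 lower in polysomal RNA as deposited, while 0 were higher and 73 lower in total RNA. Over all loci 29.4% were higher and 39.4% lower in polysomal RNA, and 20.5% higher and 19.4% lower in total RNA. In the level classes 9 and 10, the brightest, 2130 and 1972 of 2783 loci were higher in polysomal RNA, with medians of 1.93 and 1.76. The median of the 92 was 1.15, below these. In polysomal RNA the median level of the list was 6.13, 6.10 and 6.10 on the 12 DAP arrays and 7.59, 7.72 and 7.84 at 15 DAP. In total RNA it was 10.86, 10.92 and 11 at 12 DAP and 9.37, 9.54 and 9.51 at 15 DAP. At 12 DAP all 92 had a lower mean level in polysomal than in total RNA, and at 15 DAP 90 did, although the labels do not say that the fractions were normalised together.

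The difference of the 2 changes was called for 63 of the 92, against 2.90% of all loci (2.0% in this direction), and polysomal RNA was the higher one in all 63. After quantile normalization 24 were called, all with polysomal RNA higher, against 1.57% of all loci (1.13% in this direction). With 1 of the 12 arrays left out the count was 37 to 69, and the 37 came without the second polysomal 15 DAP array. A total of 37 of the 92 share their values with another locus, and among the other 55 the count was 36. The rise in polysomal RNA by itself depended on the scaling, with a median of 1.15 as deposited, 0.27 after quantile normalization and -0.14 after cyclic loess, and 13 higher and 3 lower in both scalings. After quantile normalization alone 13 were called higher and 10 lower. Later the median level stayed at 7.82 and 7.76 in polysomal RNA at 18 and 20 DAP and went on to 8.98 and 8.79 in total RNA.

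ATMG01270 was at 5.29, 6.79 and 6.07 at 12 DAP and 9.12, 9.26 and 9.34 at 15 DAP in polysomal RNA, a rise of 3.19 ± 0.40 (adjusted p = 0.000197), and changed by -0.80 ± 0.37 in total RNA (adjusted p = 0.11). ATMG00920 was at 3.78, 3.25 and 5.09 at 12 DAP and 7.55, 8.15 and 8.21 at 15 DAP in polysomal RNA, a rise of 3.93 ± 0.47, against -0.01 ± 0.33 in total RNA. The loci that went against the majority were ATMG01000 (-1.36 ± 0.38), ATMG01060 (-1.12 ± 0.35) and ATMG00770 (-0.99 ± 0.36), and 1 more that shares its values. Without the second 15 DAP array the first 3 were no longer called, and ATMG00770 was lost in 5 of 6 such fits. The RefSeq table gives no names to these organelle loci.

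**Figure D5:**
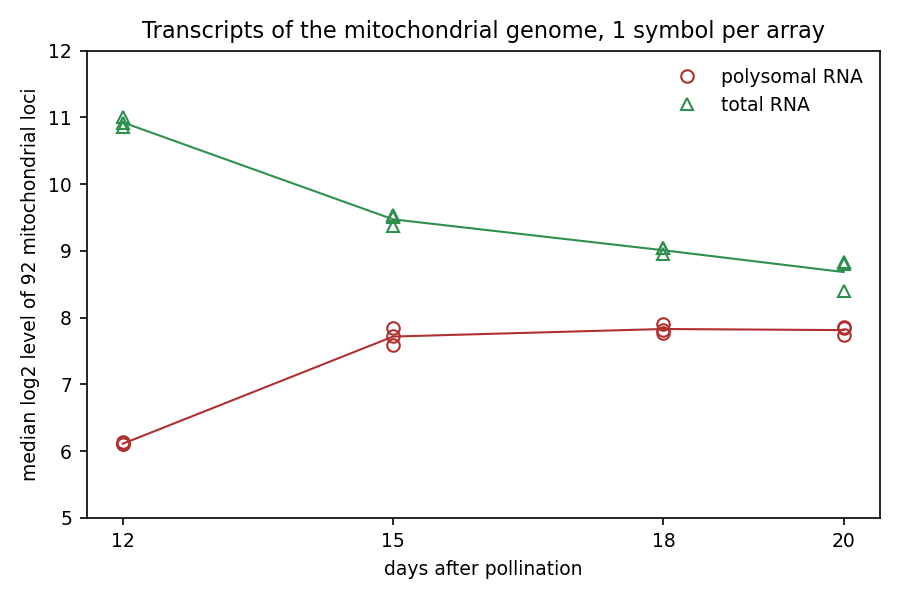
Median level (log2) of 92 loci of the mitochondrial genome on each of the 24 arrays against days after pollination, with lines through the means of 3 arrays. The polysomal medians go from 6.10 to 6.13 at 12 DAP to 7.59 to 7.84 at 15 DAP, while the total RNA medians go from 10.86 to 11 down to 9.37 to 9.54.

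The plastid genome is transcribed and translated within its own organelle too. Of its 15 loci on the array, 12 of which share values with other loci, 8 fell and 2 rose as deposited in polysomal RNA and 6 fell and 0 rose in both scalings. In total RNA 11 fell and 0 rose, and the difference between the fractions was called for 1. The median level of the list was 8.81, 8.63 and 8.17 on the polysomal 12 DAP arrays and 9.04, 9.36 and 9.13 at 15 DAP, although the median of the members' changes was -0.71. In total RNA that level was 11.70, 11.95 and 11.73 at 12 DAP and 10.55, 10.59 and 10.40 at 15 DAP. No test compared the plastid with the mitochondrial genome. ATCG00230 was at 7.17, 7.36 and 6.95 at 12 DAP and 4.42, 4.5 and 4.51 at 15 DAP and changed by -2.69 ± 0.29 (adjusted p = 0.000105).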

How the data were processed

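Values were used as deposited. The labels name biotin-labelled arrays, and the authors' deposited values are log2 levels made with RMA, per the submitters' processing notes. The array design, the set of arrays normalized together and the genome build are not given in the sources used here, so no coordinates are printed. All 27827 loci were tested with no filter on low levels. Of these, 27241 were found by locus in the RefSeq gene table (assembly TAIR10.1), used for names only. Another 182 loci have values identical to another locus on all 24 arrays.

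The 6 polysomal arrays were fitted alone with limma 3.58.1 in R 4.3.3 (lmFit, eBayes, Benjamini-Hochberg), and again after quantile normalization of these arrays. Total RNA was fitted likewise, and the difference of changes as an interaction over 12 arrays. Steps were tested on simulated data. Alternatives were median centring, cyclic loess, all 24 arrays, leaving out dim loci (18551 kept), limma-trend, array weights, a replicate block and leaving out each array. There is no read depth on arrays, so precision rests on having 3 arrays per group. The p values set a change against a replicate spread that limma pools over the groups and moderates towards that of all loci. For CRA1 the replicate SD was 0.05 at 12 DAP and 0.036 at 15 DAP, and the standard error was 0.284. CRA1 and OLEO1 were not called although their stages did not overlap.

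Named genes are the 12 largest rises and falls in both scalings whose stages do not overlap, the 3 largest called changes of each list with members called against its majority (where 5 or fewer), 14 genes whatever their result, and the 4 largest differences between fractions each way, of which 1 is not reported here. Other members of the lists are named as examples chosen after their values were seen. Lists hold 594 loci, 49 others having no RefSeq name. Lists and members were chosen with earlier results of these data known.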

Additional observations from a re-analysis of the deposited data

Results flagged for a closer look

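For 19 of the 145 named genes the change in polysomal RNA differed from that in total RNA by the interaction test, and 11 of the 19 differed after quantile normalization too. Values are polysomal minus total change on the log2 scale. Polysomal RNA changed upward relative to total RNA in AT5G28320 (6.33 ± 1.54, adjusted p = 0.0376), AT4G18690 (5.23 ± 0.46, adjusted p = 5.5e-05) and AT2G07798 (5.08 ± 0.44, adjusted p = 5.5e-05). AT4G18690 was at 4.5, 3.77 and 3.86 at 12 DAP and 8.16, 8.66 and 8.45 at 15 DAP in polysomal RNA, with means of 10.14 and 9.29 in total RNA at 12 and 15 DAP. The same direction held for HSP23.6-MITO (4.2), HSP17.6A (3.89), AT5G50360 (3.75), AT3G53040 (3.31), AT1G19490 (2.77), SESA4 (2.15) and ABI5 (1.75). After quantile normalization AT5G28320 (adjusted p = 0.113), HSP17.6A, SESA4 and ABI5 were no longer called. The mean of AT2G07798 went from 3.78 to 6.93 in polysomal RNA and from 10.60 to 8.67 in total RNA. These are the directions of the median levels of the mitochondrial genome. Whether its probes read mitochondrial transcripts was not tested.

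Polysomal RNA changed downward relative to total RNA in AT3G04445, a transcribed pseudogene, by -3.78 ± 0.72 (adjusted p = 0.0106). Its polysomal levels were 2.41, 4.48 and 5.01 at 12 DAP and 1.44, 1.48 and 1.58 at 15 DAP, and its means in total RNA were 2.15 and 3.46. The others were AT3G16895 (-3.77), AT4G36460 (-3.69), LHCB2.2 (-2.42), FBA2 (-1.99) and CRD1 (-1.90). Of these LHCB2.2 and FBA2 were called after quantile normalization too, while AT3G04445, AT3G16895, AT4G36460 and CRD1 were not, with adjusted p = 0.0719, 0.0659, 0.0618 and 0.0607.

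In the mitochondrial genome the changes differed for 63 of 92 loci, and among the named ones ATMG01240 differed by 4.97, ATMG01270 by 3.98 and ATMG00920 by 3.94. ATMG01240 was among the dimmest loci at 12 DAP, with polysomal levels of 0.85, 1.52 and 3.03. With 3 arrays per group no test for a single outlying array was made.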

How the results depend on the processing

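The 19157 polysomal calls became 5672 after quantile normalization, 6768 after cyclic loess (50 of them opposite) and 12461 of 18551 loci with dim loci left out. Median centring gave 15784, with 64.0% of calls higher against 42.8% as deposited. The share higher was 57.1% after quantile normalization and 65.4% with dim loci left out. Leaving out 1 array gave 14757 to 19043 polysomal, 7603 to 11342 total and 241 to 1209 interaction calls. After quantile normalization, an alternative chosen after seeing the data, it gave 2035 to 7761, namely 2210, 2035 and 2060 without a 15 DAP array and 7761, 7466 and 7702 without a 12 DAP array. Quantile normalization gave 7058 total and 436 interaction calls, and the fit to all 24 arrays 3645 interaction calls. The cause of these shifts was not tested.

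The same replicate numbers did not pair the polysomal samples, since deviations from the stage means correlated at 0.0154, 0.00893 and 0.00436. With the replicate block there were 19440 polysomal, 11111 total and 635 interaction calls.

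List medians that changed sign under cyclic loess were those of storage proteins (-0.26), oil body proteins (-0.26), storage protein sorting (-0.33), raffinose and tocopherols (0.13), maturation factors (-0.40), translation factors (-0.01), ribosomal proteins (-0.98) and the mitochondrial genome (-0.14). Under quantile normalization raffinose and tocopherols (0.07) and ribosomal proteins (-0.54) did. With dim loci left out raffinose and tocopherols (0.50) and gibberellin (0.62) did, and with median centring starch (0.37). The sorting list ranged from -0.10 to 0.50 with 1 array left out.

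Of the 145 named genes 108 kept direction and side of the threshold after quantile normalization and 133 to 142 with 1 array left out. Genes that changed sign under cyclic loess were KCS18 (-0.22), GPAT9 (-0.19), PDAT (-0.45), CH1 (-0.96), OST1 (0.36), AAP1 (-0.08), SUT2 (-0.35), SS3 (AT1G11720, -0.43), RNR1 (-0.31), ICE1 (-0.13), EPR1 (AT2G27380, -0.04), FUS3 (-1.63) and AT4G36460 (0.23). Under quantile normalization CH1 (-0.49), OST1 (0.16), FUS3 (-1.07) and CRA1 (0.26) did, and under median centring CRA1 (0.37), SESA3 (0.50) and OLEO1 (0.19). With 1 array left out FUS3 ranged from -0.07 to 0.57 and SESA3 from -0.19 to 0.04.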

Other observations

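MicroRNA genes were mostly lower as deposited and seldom so in both scalings. Of 174 microRNA genes 116 were lower and 6 higher as deposited, with a median of -1.26, and 11 fell and 3 rose in both scalings. Their mean level on an array was 2.28 to 2.31 at 15 DAP, against 4.33 to 4.35 for all loci. Over all loci 39.4% were lower as deposited. In the dimmest level class and the next, 1766 and 2101 of 2783 loci were lower as deposited, with medians of -1.11 and -1.33. The microRNA median lies between these, as for dim loci in general. Of 61 transfer RNA genes 30 were lower and 9 higher as deposited, and 12 fell and 2 rose in both scalings. Over all loci 7.16% fell and 10.8% rose in both scalings. Of 68 small nucleolar RNA genes, which guide the modification of ribosomal RNA, 16 were higher and 17 lower as deposited, 8 rose and 6 fell in both scalings, and of 222 long non-coding RNA genes 21 rose and 19 fell, shares near those over all loci. The labels name a kit that copies messenger RNA, and what it records of short RNAs was not tested.

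Some of the 100 largest falls lie beside each other in the order of loci. AT1G62060 stands next to AT1G62070, AT1G62220 next to AT1G62225, AT5G38160 next to AT5G38170, and SK8 within 3 loci of SK9, in each case with both loci among the 100. Among the 100 largest rises 2 such pairs were found, AT1G07400 with HAI2 and AT1G19530 with AT1G19540.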
